A study of Caenorhabditis elegans with 4 samples.

Results

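Chromosome IV carried 948 of the 6048 distinct binding regions of LSY-2 that the authors' combined list placed on the 6 nuclear chromosomes of Caenorhabditis elegans. The regions were taken as every row of that list on IV, with exact repeats of an interval counted once, which removed 2 of 950 rows. The study mapped LSY-2 by chromatin immunoprecipitation and sequencing (ChIP-seq) in whole hermaphrodite larvae of the fed first stage (L1), grown at 20 °C. It comprised 2 ChIP samples and 2 input samples, all of the strain OP367. Every animal, inputs included, carried unc-119(ed3) and the transgene wgIs367, in which lsy-2 is joined to TY1, EGFP and FLAG tags and which also holds unc-119. The transgene was introduced by bombardment, and binding was read from the tagged protein that it encodes; the genotype lists no mutation of lsy-2 itself. Antibodies against GFP collected the bound fragments. Whether the replicates came from separate cultures is not labelled, so the spread between them may be technical. No peak list of the inputs was used here.

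The protein has zinc fingers, binds DNA and is needed for the ASE taste neurons of the left and right side to become different, where it acts upstream of the microRNA lsy-6. ChIP-seq of whole larvae averages over all tissues, so a binding region does not say in which cells LSY-2 was bound. The autosomes of C. elegans are known for gene-dense centres and for repeat-rich arms that recombine more often, and chromosome IV is also known for its large clusters of piRNA genes. Where the regions lie relative to genes is not analysed here.

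The lists hold an interval, a score and a number in each peak name. The score is the authors' own and its scale is not named. On IV 722 of the 948 regions (76.2%) shared the highest score of 3.95, so strength is given here by the number in the peak name, called the rank, where 1 is the best of the whole list. All positions are those of WormBase build WS220. The files give no read counts, and the depth of each sample is unknown. With 2 replicates an exact two-sided sign test over samples cannot go below p = 0.5, so comparisons between chromosomes or segments are given without a test. They are descriptions, with the replicates side by side, and the 95% Wilson intervals cover counting error over regions only.

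The strongest regions on IV lay on both arms and in the centre, and each was found close to the same place in both replicates, with ranks that differed by at most 2-fold. The best was at 654662 to 655197, near the left end, where it was 536 bp wide. Its combined rank was 3, and replicates 1 and 2 ranked it 2 and 3. The next lay at 4749811 to 4750300 (rank 6, with ranks 6 and 9 in replicates 1 and 2). The one after it lay at 1094128 to 1094594 (rank 7, with ranks 5 and 8). These 3 regions were all in the left segment of the chromosome. Their ranks differed by at most 3 places between the replicates.

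The next in rank were a pair within 20 kb of each other. One was at 12391082 to 12391528 (rank 20, with ranks 21 and 18 in replicates 1 and 2). Its partner was at 12371831 to 12372280 (rank 23, with ranks 34 and 17). The next best regions were at 11566118 to 11566534 (rank 29, with ranks 29 and 26) and at 4445692 to 4446118 (rank 41, with ranks 40 and 32). They were followed by 13881694 to 13882138 (rank 42, with ranks 33 and 39), 11149558 to 11149996 (rank 45, with ranks 47 and 41) and 16656229 to 16656614 (rank 47, with ranks 58 and 38). The region at 8432710 to 8433169 ranked 49 and the last 4 of the best 15 ranked between 64 and 76. Those 4 lay at 5091142 to 5091523, 7791211 to 7791597, 2495149 to 2495529 and 13240481 to 13240852.

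All 15 best regions ranked within the first 73 of replicate 1 and within the first 93 of replicate 2. Their widths ran from 372 to 536 bp with a median of 439 bp. Each overlapped exactly 1 entry of either replicate, and the centre of that entry lay at most 19.5 bp away in replicate 1 and 19 bp away in replicate 2. By position 6 of the 15 fell in the left segment, 4 in the central one and 5 in the right one. Only 3 of them had another region with its centre within 1 kb.

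The density of regions fell towards the right end of IV. The chromosome was divided into 3 segments of 5.83 Mb, from its first base to the largest end of any entry. The left segment held 338 regions, or 57.98 per Mb. The central one held 386, or 66.2 per Mb, and the right one held 224, or 38.4 per Mb. The right segment therefore had 0.663 of the density of the left one.

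Both replicates showed the same order of the segments. For each replicate list the entries ranked 1 to 6064 were used, the length of the combined list. The left segment held 57.0 ± 2.30 entries per Mb, the central one 67.6 ± 0.970 and the right one 39.3 ± 0.485 (SD, n = 2). The right over left ratio was 0.675 in replicate 1 and 0.703 in replicate 2. The replicates share their strain and possibly their culture, so this spread describes how repeatable the calls were.

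In 1 Mb steps the fall was visible as a change near 12 Mb. From 0 to 12 Mb each bin held 48 to 84 regions, with a mean of 62.1 per Mb. From 12 to 17 Mb each held 27 to 45, with a mean of 37, and the replicates had means of 38 and 38.2. These ranges of bins were separate in the combined list but overlapped in both replicates. In replicate 1 the bin from 13 to 14 Mb held 50 entries, above the 46 from 6 to 7 Mb. In replicate 2 the bin from 12 to 13 Mb held 51, above the 48 from 6 to 7 Mb. The densest bin, from 11 to 12 Mb, stood next to the change and held 84 regions, with 88 entries in replicate 1 and 84 in replicate 2. The sparsest whole bin, from 15 to 16 Mb, held 27 regions and 26 entries in either replicate. The limit of 12 Mb was picked after the bins had been seen. Over the 17 whole bins the counts of the replicates followed each other (Pearson's r = 0.94, Spearman's rho = 0.93). These bins share the same strain and neighbouring bins resemble each other, so this is a description.

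**Figure D1:**
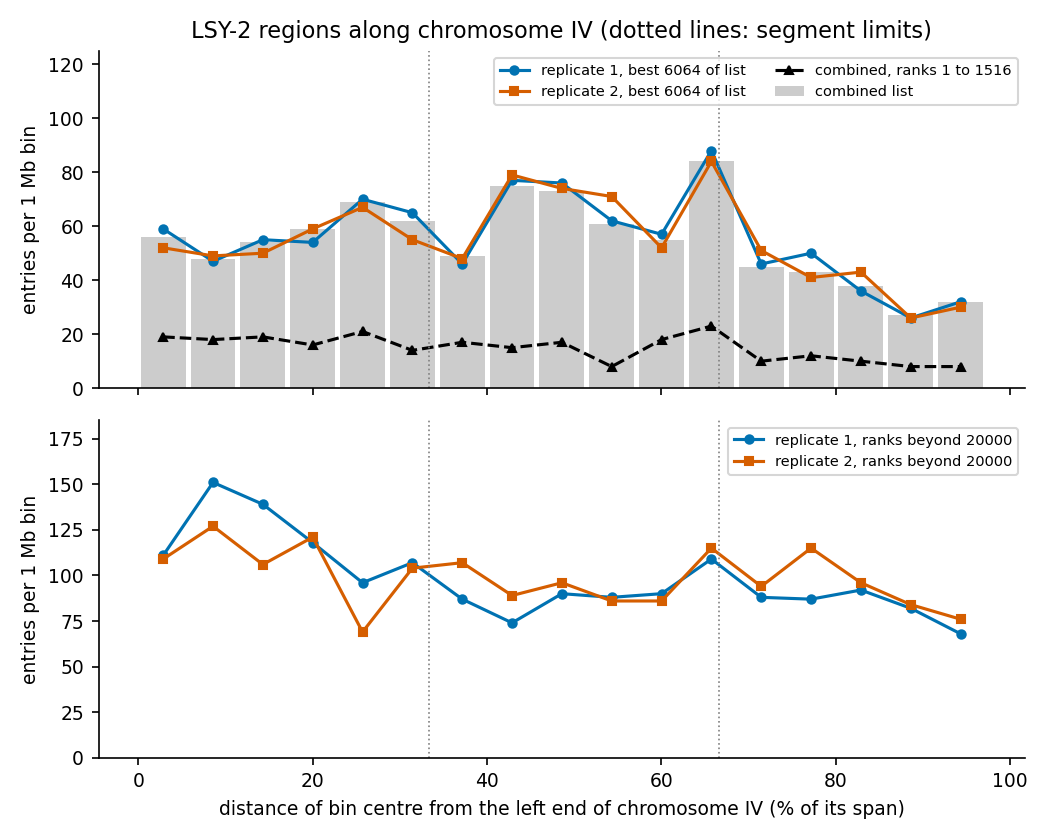
Entries per 1 Mb bin (y axis) against the distance of the bin's centre from the left end of IV, in percent of its span (x axis); the upper panel shows the combined list as bars, the best 6064 entries of each replicate as lines and the combined regions of rank 1 to 1516 as triangles, and the lower panel shows entries ranked beyond 20000. The 5 bins from 12 to 17 Mb hold 27 to 45 combined regions, below the 48 to 84 of the bins before them. Both replicates follow the bars, but in each of them the counts before and after 12 Mb overlap.

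Weak entries were spread differently along IV. Of the entries ranked beyond 20000, replicate 1 had 121 per Mb in the left segment, 90.2 in the central one and 83.0 in the right one. Replicate 2 had 107, 96.2 and 94.5 per Mb. The central segment thus held no excess of weak entries (0.883 and 0.957 of the outer segments), and the right over left ratio was 0.685 in replicate 1 and 0.887 in replicate 2. The fall to the right was present in the weak entries of both replicates, but its size differed between them. Over the 17 bins the weak and the best entries of a replicate showed little relation. Pearson's r was 0.13 in replicate 1 and 0.07 in replicate 2, and Spearman's rho was 0.28 and 0.04. Between the replicates the counts of weak entries had a Pearson's r of 0.69 and a Spearman's rho of 0.60.

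Uneven ends were not peculiar to IV. With the sparser end set over the denser one, the ratio was 0.663 on IV and 0.630 on II, where the left end was the sparser, and 0.80 to 0.903 on the other 4 chromosomes. Among the best 1516 it was 0.543 on IV and 0.464 on II.

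The strongest regions of IV were most frequent in its left segment. Of the 100 regions on IV that ranked within the best 606 of the list, 46 were in the left segment, 31 in the central one and 23 in the right one. Over all 948 regions the shares were 35.7%, 40.7% and 23.6%. A higher left share among the best 606 was not peculiar to IV. On X it rose from 32.2% of all regions to 43.4% of 53, and it also rose on I and II. On III and V it fell. The right over left ratio of IV was 0.663 in the whole list, 0.624 among the best 3032, 0.543 among the best 1516 and 0.50 among the best 606. In the replicates it was 0.533 and 0.511 among the best 606.

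The central excess of IV shrank in the same direction. The central segment had 1.37 times the density of the outer ones in the whole list, 1.17 times among the best 1516 and 0.899 times among the best 606. Replicate 1 gave 0.841 and replicate 2 gave 0.845 among their best 606 entries. The central excess was also smaller among the best 606 than in the whole list on the other 4 autosomes, falling from 1.68 to 1.33 on I, from 1.56 to 1.33 on II, from 1.38 to 1.27 on III and from 1.98 to 1.51 on V. It stayed above 1 on those 4. The sign on IV depends on the limits of the segments: with the middle 50% of the chromosome set against both ends the log2 ratio among the best 606 was 0.058, against -0.15 with 3 segments of equal length. The replicates gave -0.059 and -0.029 with the middle 50%. That class rests on 100 regions of IV, and the difference from the other autosomes was not tested.

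**Figure D2:**
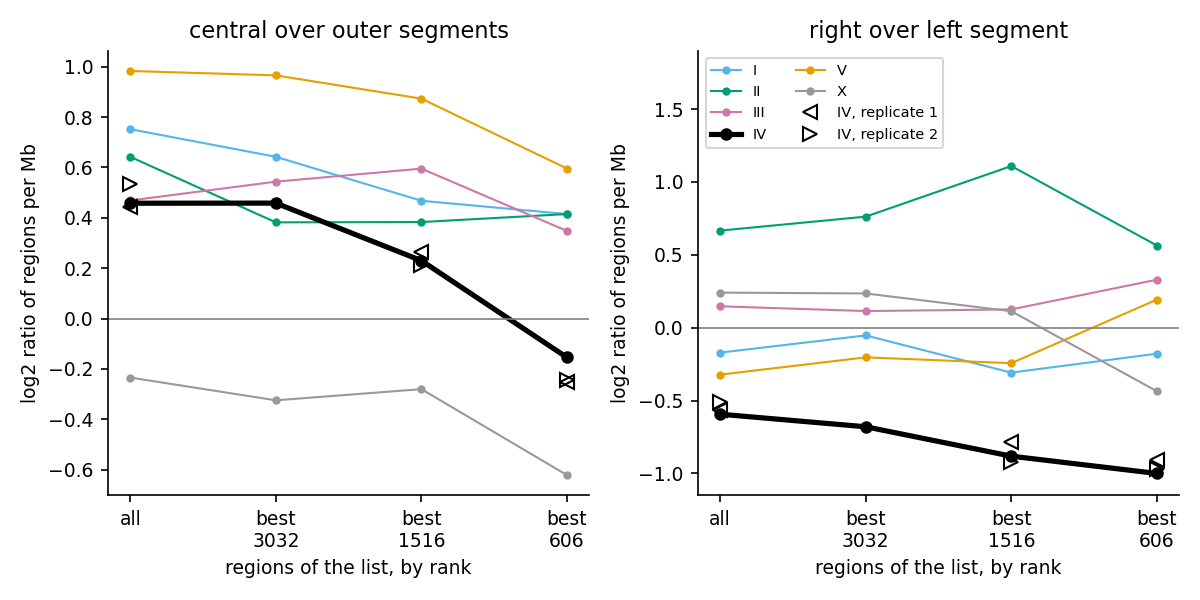
Log2 ratio of regions per Mb between segments of equal length (y axis) for the whole combined list and its best 3032, 1516 and 606 ranks (x axis), with 1 line per chromosome and open triangles for IV in each replicate. The line of IV falls from 0.46 to -0.15 for the central over the outer segments and from -0.59 to -1 for the right over the left segment.

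In broad rank classes IV took a smaller share of the list among its weaker regions, though the counting intervals of the classes overlapped. The chromosome makes up 17.4% of the nuclear span. It held 16.99% of the regions ranked 1 to 1516 (95% interval 15.2 to 18.96), 15.8% of those ranked 1517 to 3032 (14.1 to 17.8) and 14.9% of those ranked 3033 to 6064 (13.7 to 16.2). In replicate 1 the same classes gave 16.8%, 16.6% and 15.2%, and in replicate 2 they gave 16.99%, 15.6% and 15.1%. Finer classes of the combined list showed no steady fall. IV held 15.2% of ranks 2001 to 3000 and 17.4% of ranks 3001 to 4000. It held 13.7% both of ranks 4001 to 5000 and of ranks 5001 to 6064. The share rose again among entries beyond rank 20000, to 17.2% (16.4 to 17.9) in replicate 1 and 17.3% (16.6 to 18.1) in replicate 2.

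As density, IV held 54.2 regions per Mb. V had 41.1 and X had 53.2, while II had 64.2, I had 74.4 and III had 86.9. Against the 61.6 of these other 5 chromosomes pooled, the log2 ratio of IV was -0.19. With the best 6064 entries the replicates gave -0.15 and -0.18. Among the best 1516 regions the log2 ratio was -0.047. For ranks 3033 to 6064 it was -0.27. The density of IV was thus furthest below that of the pooled other chromosomes in the weaker ranks of the combined list. That pool itself changed with rank, since X held 9.52% of the best 1516 regions and 18.0% of those ranked 3033 to 6064. The part of X in the change of the ratio was not tested. Read as the share of the regions of IV that were strong, 257 of the 948 (27.1%, 24.4 to 30.0) ranked within the best 1516, against 25% of the regions of all chromosomes. The replicates gave 26.3% and 27.0% for IV, and the interval of IV holds the value of all chromosomes.

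Regions on IV often had a close neighbour. The centre of the nearest other region lay within 1 kb for 211 of the 948 regions (22.3%, 19.7 to 25.01). On the other chromosomes this share ran from 15.3% on X to 18.3% on II. Among the best 3032 regions it was 13.1% on IV (10.4 to 16.4) and 5.56% to 8.98% elsewhere. The contrast was smaller in the replicates, where IV had 21.9% and 22.6%, and the next chromosome had 20.8% (III, replicate 1) and 21.6% (II, replicate 2). In the combined list IV had 40.7% within 2 kb and III had 40.9%. Within 500 bp IV had 4.54%, below I (4.82%) and V (4.66%). At 1 kb IV thus had the highest share in all 3 lists, by about 1 percentage point in the replicates. At 500 bp and at 2 kb it did not.

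Close neighbours were most frequent in the central segment of IV, where 25.1% of regions (97 of 386) had one. In the left segment it was 18.6% (63 of 338) and in the right one 22.8% (51 of 224). No counting intervals are given for these shares. The central segment was also the densest, and the part of density in these shares was not tested. Chains of neighbours within 1 kb formed 19 groups of at least 3 regions on IV, with 4 regions at most. One of these groups, at 8431024 to 8433169, held 4 regions, among them the one ranked 49. Its other members ranked 610, 1101 and 5653. The tightest group lay at 3050212 to 3051062, where 3 overlapping regions ranked 227, 248 and 780 had their centres within 494 bp. In replicate 1 all 3 shared the same best entry, ranked 193, so that list does not give each of them a best entry of its own.

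The right segment of IV was also where most long stretches without a region lay. On IV 19 gaps between neighbouring regions exceeded 100 kb, and 12 of them were in the right segment, 6 in the left and 1 in the central. The gaps of the right segment added up to 1.78 Mb, or 30.5% of it. Those of the left segment added up to 13.0% of it. Outside these gaps the density was 55.3 regions per Mb in the right segment, 66.6 in the left and 67.7 in the central. The gaps were chosen for holding no region, so this comparison lowers the contrast by construction.

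The widest gap ran from 15039837 to 15259592 (219756 bp). It held 12 entries of replicate 1 and 14 of replicate 2, of which the best ranked 5133 and 3340. The next ran from 16181186 to 16382334 and held 6 and 13 entries, the best at ranks 11641 and 8732. The third ran from 14071211 to 14260695 and held 24 and 28 entries, the best at ranks 6321 and 5023. Peaks were therefore called within all 3 gaps in both replicates. For comparison, IV had 281 and 286 entries per Mb in replicates 1 and 2 over its whole length. For their length all 3 gaps held fewer entries than this in both replicates. The gaps were chosen for holding no combined region, which lowers these counts by construction.

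The width of a region on IV followed its rank in a way that splits the list. Of the 948 regions 582 (61.4%) were exactly 350 bp wide, against 63.6% over all chromosomes. The other 366 had widths of their own, from 88 to 1206 bp. In this second kind width fell with rank (Spearman's rho = -0.84 over 366 regions, a description), from a median of 326.5 bp over 78 regions in ranks 1 to 500 and 233.5 bp over 86 in ranks 501 to 1000 to 173 bp over 150 in ranks 1001 to 2000 and 131 bp over 41 in ranks 2001 to 3000. The fixed width made up 2.5% of the regions in ranks 1 to 500, 72.8% in ranks 2001 to 3000 and 99.3% in ranks 4001 to 5000. The same relation held on the other chromosomes, with rho from -0.77 to -0.87.

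**Figure D3:**
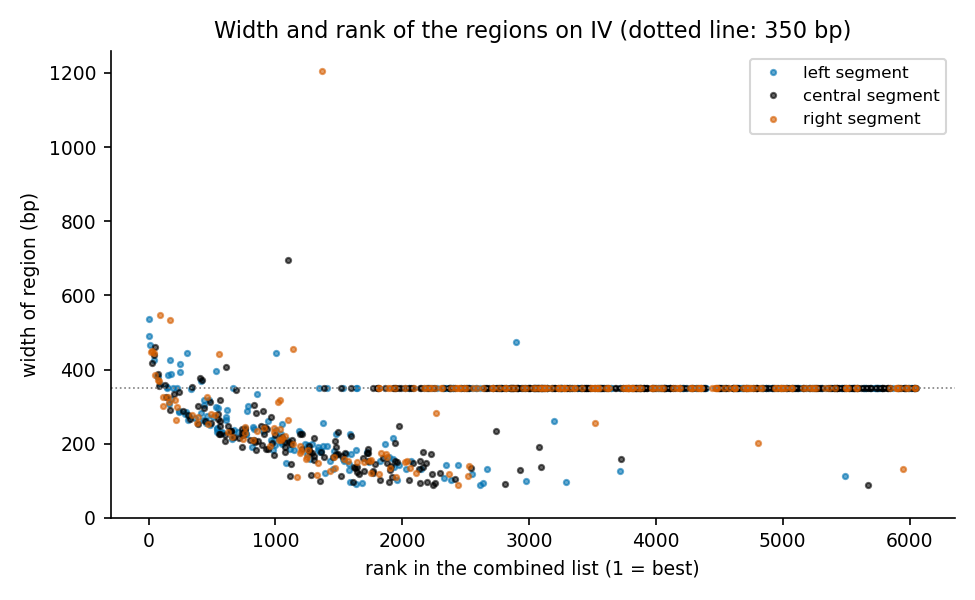
Width of each of the 948 regions on IV in bp (y axis) against its rank in the combined list (x axis), coloured by segment. Widths fall from 536 bp at rank 3 towards 88 bp, a second band sits at exactly 350 bp mostly beyond rank 1000, and 1 region reaches 1206 bp.

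The widest regions on IV fell into both the strong and the middle ranks. The widest, at 14032928 to 14034133 (1206 bp), was listed under 2 names with ranks 1368 and 2105. Replicate 1 had 2 separate entries in it, of 497 and 180 bp, and replicate 2 had 3, of 256, 135 and 82 bp. The wide interval thus covered several narrower peaks of either replicate. The next, at 8431915 to 8432610 (696 bp, rank 1101), overlapped 2 entries of each replicate and shared its best entries with the neighbour ranked 610. The 3 others of the widest 5 were single peaks of high rank: 15570658 to 15571205 (548 bp, rank 92), the best region of IV, and 14824821 to 14825353 (533 bp, rank 166). The other interval with 2 names lay at 4727879 to 4728274, with ranks 534 and 3401. It held 2 overlapping entries of replicate 1, of 341 and 269 bp, and 1 of replicate 2.

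Most strong entries of each replicate on IV overlapped an entry of the other replicate, where entries of any rank were counted. Of the 963 entries of replicate 1 on IV within its best 6064, 926 (96.2%, 94.7 to 97.2) overlapped an entry of replicate 2. In the other direction it was 908 of 948 (95.8%, 94.3 to 96.9). On the other chromosomes the shares were 96.2% and 95.4%. By segment of IV the share in replicate 1 was 96.2% on the left, 96.2% in the centre and 96.1% on the right. The 3 segments thus differed by less than their counting intervals in replicate 1. Replicate 2 gave 93.8% (89.9 to 96.3) on the right against 96.9% (94.4 to 98.3) on the left. Fewer partners were themselves strong: of the 963 entries of replicate 1, 748 were shared within the best 6064 of both replicates.

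Agreement on IV fell with rank as it did elsewhere. In replicate 1 99.2% of the entries ranked 1 to 3000 overlapped an entry of replicate 2, 67.6% of those ranked 9001 to 12000 and 31.9% (28.1 to 36.0) of those ranked 27001 to 30000. In that last class the other chromosomes had 36.9% (34.99 to 38.8). Over all entries of replicate 1 the share was 58.9% on IV and 60.9% on the other chromosomes. Over all entries of replicate 2 it was 55.7% (54.4 to 57.1) on IV and 58.7% (58.1 to 59.3) on the others. In the last class of replicate 2 it was 30.8% (26.9 to 35.1) on IV and 33.8% (31.99 to 35.7) on the others. Among entries of replicate 1 ranked 6065 to 20000 the central segment of IV had a higher share, 64.7% (61.3 to 67.9), against 55.3% (51.9 to 58.6) on the left and 56.3% (52.4 to 60.2) on the right. In replicate 2 the same 3 values were 57.9%, 55.2% and 51.2%. Entries of the other replicate are not equally dense in the 3 segments, and the part of that in these shares was not tested.

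**Figure D4:**
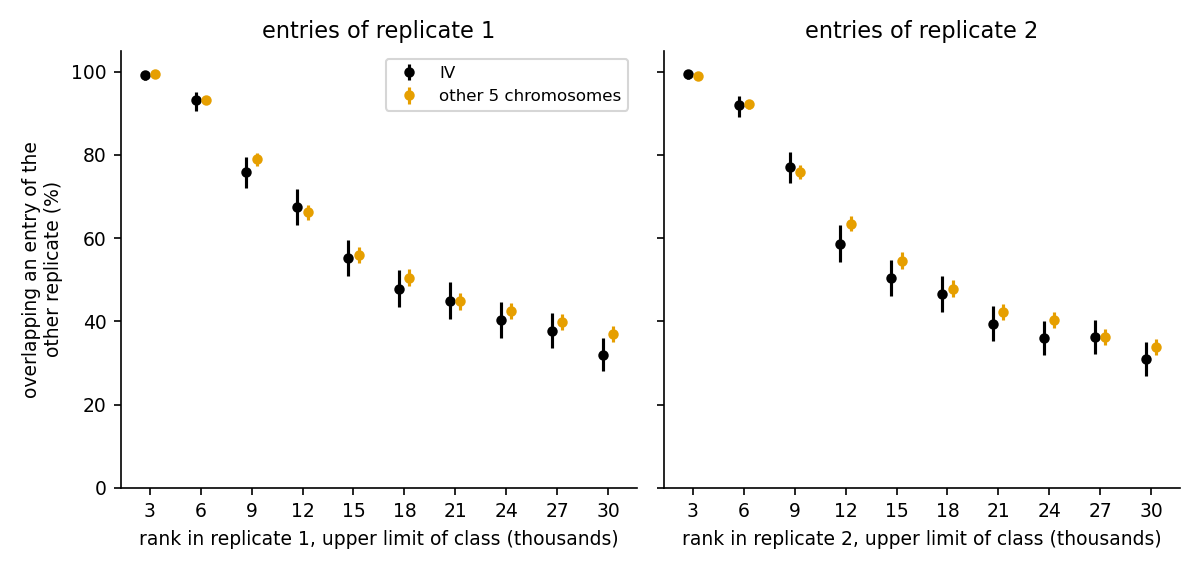
Share of the entries of 1 replicate that overlap an entry of the other by at least 1 bp, in percent (y axis), by classes of 3000 ranks (x axis), for IV and for the other 5 chromosomes, with 95% Wilson intervals. Both fall together, on IV from 99.2% to 31.9% in replicate 1.

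Nearly every region of IV had a partner in both replicates: 941 of 948 (99.3%, 98.5 to 99.6), against 98.9% over all chromosomes. Its rows are marked as made with the irreproducible discovery rate, which sets replicates against each other, so the list is not independent of this count. The best-ranked partner lay close, with a median distance between centres of 11 bp in replicate 1 and 15 bp in replicate 2. The ranks of the partners had a Spearman's rho of 0.81 over the 941 regions, which is given as a description. A total of 172 regions overlapped more than 1 entry of replicate 1 and 104 more than 1 of replicate 2.

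Ranks differed between the replicates by a median of 1.33-fold on IV. They differed by more than 2-fold for 138 of the 941 regions (14.7%), against 15.6% over all chromosomes. The spread grew with rank. None of the 80 regions ranked 1 to 500 differed by more than 2-fold, while 30.1% of those ranked 5001 to 6064 did. Replicate 1 gave the better rank to 495 regions and replicate 2 to 443, and 3 regions had equal ranks.

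Among the 100 best regions of IV the largest difference of rank was at 4725385 to 4725680, with 369 in replicate 1 and 1062 in replicate 2. This region overlaps another of the list, ranked 667, which has the same best entries. The region at 12371831 to 12372280 followed with ranks 34 and 17. The other 3 of the 5 most discordant were at 2704058 to 2704425 (558 and 284), 11179257 to 11179517 (607 and 319) and 7084821 to 7085115 (330 and 592). All differences but the first were at most 2-fold.

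Over all ranks the largest ratio was 14.4-fold, at 10222301 to 10222534 (rank 2736). Its best entry in replicate 1 ranked 287 and its best in replicate 2 ranked 4139. The replicate 1 entry had its centre at -236.5 bp from that of the region, to its left, and was also the best entry of a neighbouring region, at 10222024 to 10222376 (rank 344). Of the 138 regions past 2-fold, 5 (3.62%) shared a best entry with another region, close to the 33 of all 941 (3.51%). Past 4-fold it was 2 of 26 (7.69%). The region at 10222301 to 10222534 was picked after its values had been seen.

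**Figure D5:**
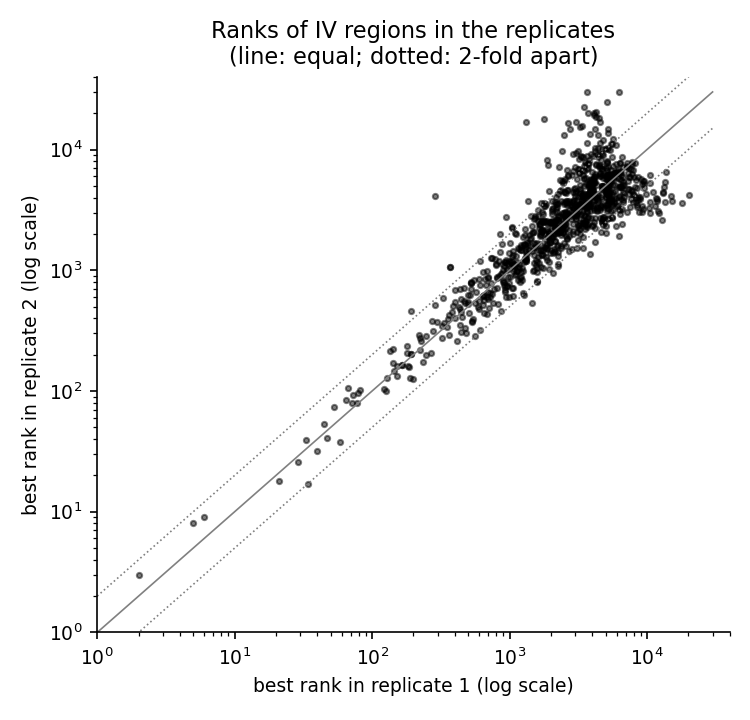
Best rank in replicate 2 (y axis, log scale) against best rank in replicate 1 (x axis, log scale) for the 941 regions of IV with a partner in both; the solid line marks equal ranks and the dotted lines a 2-fold difference. Points spread away from the line as ranks get worse, and 138 lie outside the dotted lines.

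The 7 regions without a partner in 1 of the replicates were mostly weak. The 4 without an entry of replicate 1 ranked 1324, 3174, 5264 and 5744, at 15561265 to 15561379, 14013701 to 14014050, 6327312 to 6327661 and 3747880 to 3748229. The 3 without an entry of replicate 2 ranked 4990, 5947 and 5964, at 13383826 to 13384175, 11956629 to 11956760 and 5535847 to 5536196. In the replicate that did have them these 7 ranked from 1212 to 5147. All were thus within the best 6064 of that replicate.

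The first of these, at 15561265 to 15561379, was not a site seen by replicate 2 alone. Replicate 1 had an entry ranked 1404 just to its right, at 15561426 to 15561534, which does not overlap it. A single entry of replicate 2, at 15561194 to 15561513 and ranked 1212, overlaps both. This replicate 1 entry was also the strongest of the 17 entries on IV that both replicates placed within their best 6064 and that overlapped no combined region. These were 2.27% of the 748 shared entries on IV, against 2.01% over all chromosomes.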

How the data were processed

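The analysis began from 3 deposited peak lists, 1 for each ChIP replicate (30000 entries each) and 1 combined list (6064 rows). Per the file headers, positions are in WormBase WS220; the source field of every row names SPP, a ChIP-seq peak caller, with the irreproducible discovery rate, which compares peak ranks between replicates. Each row carries a score, which the authors deposited with no scale named; it was used only to describe the lists. For the aligner, versions, thresholds, use of the inputs and making of the combined list, the state is: not given in the sources used here.

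Exact repeats of an interval were counted once, with the best rank. A region was placed by its centre. Overlap meant at least 1 bp, and a partner was the best-ranked overlapping entry. Spans were taken as the largest end in any list. Calculations used Python 3.11.15, numpy 2.4.6, pandas 2.3.3 and scipy 1.17.1, and the interval steps were checked on made-up lists. The text names the 15 best-ranked regions on IV, the 5 most discordant of the best 100, the 5 widest, regions without a partner, extreme bins and gaps, and tight groups. The regions and measures were chosen with earlier results of these data known. Genes were to be named where an annotation of WS220 was at hand; gene positions and sequence are not used here. Alternatives were stricter lists, single replicates, other overlap rules and other segment limits.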

Additional observations from a re-analysis of the deposited data

How the results depend on the processing

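Of 36 alternative values for 8 results, 12 stayed within the spread between replicates or the counting interval, 23 moved beyond it and 1 changed sign. Many of the 12 were values of a single replicate. For the density and the log2 ratios such values also set the SD used as the spread, so their stability is in part by construction. The alternatives for the right over left ratio and for close neighbours were chosen after seeing the data, and both of these results are absent from the planned list. The central over outer ratios with the best 606 ranks were also chosen after seeing the data. Scaled by list size, the density of IV (54.2 per Mb) was 56.7 with the best 3032 regions and 58.8 with the best 1516, and its log2 ratio to the rest (-0.19) was -0.11 and -0.047. The log2 central over outer ratio (0.46) was 0.23 with the best 1516 and -0.15 with the best 606, or 0.058 with the best 606 and the middle 50% against both ends. The log2 right over left ratio (-0.59) was -0.68, -0.88 and -1 with the best 3032, 1516 and 606, and -0.69 with end segments of 25% each. In place of the combined list, the best 6064 entries of each replicate alone gave 54.2 to 55.1 per Mb on IV. Their log2 ratios were -0.18 to -0.15 (other chromosomes), 0.44 to 0.53 (centre) and -0.57 to -0.51 (right over left). Of these entries on IV 26.3% to 27.0% were in the best 1516 and 21.9% to 22.6% had a neighbour within 1 kb. Regions with partners in both replicates (99.3%) fell to 81.96% with reciprocal 50% overlap and 75.5% with only the best 6064 entries. The overlap of the best replicate 1 entries (96.2%) fell to 84.7% with reciprocal 50% overlap and 58.9% over all entries. The share in the best 1516 (27.1%) became 10.5% for the best 606 and 52.3% for the best 3032, by construction. Close neighbours (22.3%) became 4.54% within 500 bp, 40.7% within 2 kb and 13.1% among the best 3032. Where no cause is given by construction, the cause was not tested. No paired analysis was possible because the inputs have no peak list here, so no groups with shared replicate numbers were compared. The lists hold no counts, so no depth limit can be given.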
